A study of Homo sapiens with 6 samples.

Results

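The drug- and steroid-metabolising enzymes of the CYP, UGT, SULT and GST families were followed after SETD5 knockdown in Huh7, a line of human liver cancer cells that keeps many hepatocyte functions. Members were taken by symbol: the letters CYP, UGT, SULT or GST followed by a letter or digit, without the cholesterol synthesis enzyme CYP51A1, and averaging 1 CPM or more (CPM, read counts normalized to library size) over the 6 libraries. Of 14200 genes in the deposited data, 57 had a matching symbol, and 47 of these reached 1 CPM, among 12865 genes that did. Only 2 to 9 of the 14200 genes had 0 reads in a library, so genes with few or no reads may have been left out. Family genes absent from the deposited data, such as CYP3A4, CYP2D6 and CYP7A1, could not be assessed. The members were 22 cytochromes P450 (CYP), 6 UDP-glucuronosyltransferases (UGT), 6 cytosolic sulfotransferases (SULT) and 13 glutathione S-transferases (GST). Nearest to the threshold, CYP1B1 at 1.00 and CYP2D7 at 1.05 CPM were kept, and CYP11A1 at 0.946 and UGT8 at 0.79 CPM were not.

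The labels give 3 SETD5 knockdown libraries and 3 control libraries, all of poly(A)-selected RNA from Huh7 cells grown in serum-supplemented DMEM. SETD5, which encodes a SET-domain chromatin protein, was silenced by siRNA carried by the lipid reagent RNAiMAX. The sources used here give neither the siRNA sequences nor what the control cells received. All libraries came from 1 cell line. Separate cultures are not stated for the libraries of a group, so p-values cover the spread between libraries, possibly a technical one. In bulk RNA, fewer cells with a transcript and less of it per cell cannot be told apart.

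P450 enzymes are heme proteins that put oxygen into lipophilic molecules, with electrons passed on by P450 reductase and cytochrome b5 in the endoplasmic reticulum or by ferredoxin in mitochondria. UGT, SULT and GST enzymes then join a polar group to drugs, steroids, bile acids and reactive products: glucuronic acid from UDP-glucuronic acid, sulfate from PAPS, or the tripeptide glutathione. In hepatocytes these enzymes are abundant, and their genes are controlled by liver-enriched transcription factors and by nuclear receptors such as PXR (NR1I2) and by AHR.

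Each library held 14038447 to 17095417 recovered reads, and 3 reads corresponded to 0.176 to 0.214 CPM. SETD5 itself measured 136, 140 and 138 CPM in the knockdown libraries, against 212, 210 and 202 CPM in the control libraries. Its log2 fold change was -0.59 ± 0.032 (SE), with a limma adjusted p of 1.15e-17, and 0.664 times the control level remained. The exact two-sided permutation test over the 6 SETD5 values gave p = 0.1, the smallest this design allows. The 7 hepatocyte-line markers were all measured, at a summed 34948 to 35336 CPM in knockdown and 37497 to 38244 CPM in control libraries. Of these 7, 5 were lower, led by TTR at a log2 fold change of -0.69 and APOB at -0.56, ALB was higher at 0.09, and HNF4A was not called. The 3 blood markers summed to 11 to 11.7 CPM in knockdown and 10.5 to 12.3 CPM in control, and none of the 3 endothelial markers reached 1 CPM. Of the 4 stellate and fibroblast markers 3 were tested, summing to 33.8 to 36.4 CPM in knockdown and 42.6 to 49.9 CPM in control. Of the 3 bile duct markers 2 were tested, summing to 221 to 229 CPM in knockdown and 198 to 220 CPM in control. The part of such differences in the results below was not tested.

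More members fell than rose. Of the 47 members 21 were lower and 4 were higher after knockdown at a limma adjusted p under 0.05, and 22 were not called. The called share was 53.2% of members, against 52.1% of all tested genes. The shares in each direction differed more: 44.7% of members against 26.5% of all tested genes were lower, and 8.51% of members against 25.7% of all tested genes were higher. The 6 values did not overlap between the groups for 29 members, 24 lower and 5 higher, and 57.3% of all tested genes had such values. The median log2 fold change was -0.17 over the members and -0.0012 over all tested genes.

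By family, of the 6 UGT members 5 were lower and 1 was not called, and the same counts held for the 6 SULT members. Among the 13 GST members 5 were lower, 2 higher and 6 not called. The 22 P450 members had 6 lower, 2 higher and 14 not called, a called share of 36.4%, against 52.1% of all tested genes. The lower share of the P450s, 27.3%, was near the 26.5% of all tested genes. It was 38.5% for GST members and 83.3% for UGT and for SULT members. The higher share was 9.09% for P450 and 15.4% for GST members, against 25.7% of all tested genes. Precision followed the level. The SE of the log2 fold change was 0.026 to 0.067 for the 18 members at 20 CPM or more. It was 0.14 to 0.16 for the 9 members under 2 CPM. Apart from SULT1A2 these 9 were all P450s, and none of those P450s was called. The called shares of the families were therefore not compared at equal precision.

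**Figure D1:**
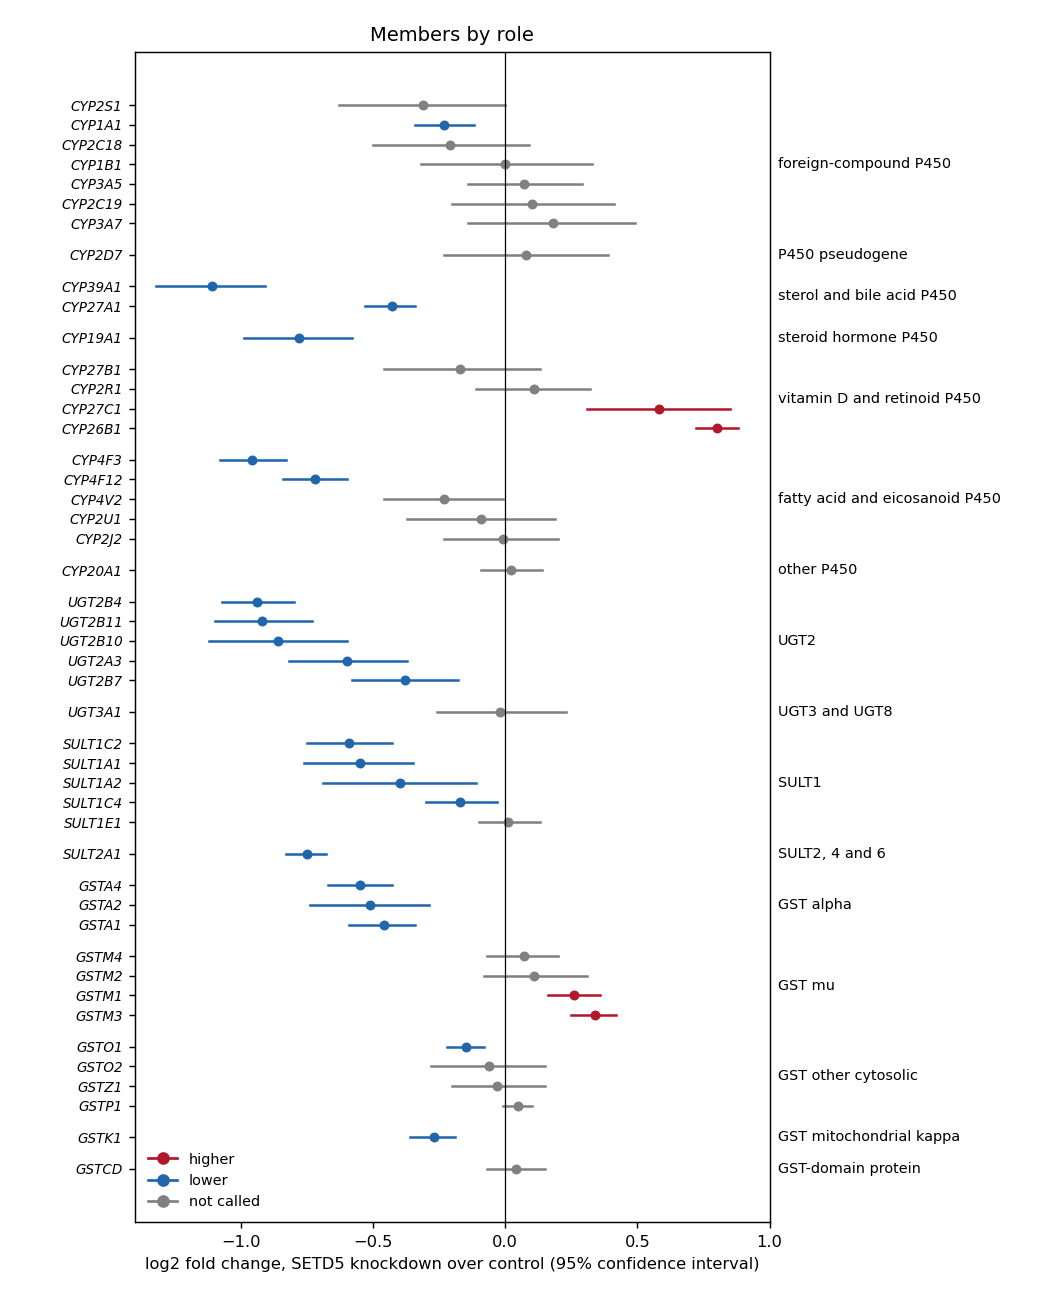
The log2 fold change of SETD5 knockdown over control (x axis, log2 of CPM + 1) for members (rows, grouped by role), with 95% confidence intervals from limma. Red points were called higher, blue points lower and grey points not called. All 5 UGT2 and all 3 GST alpha members lie left of 0, and CYP1A1 is the only coloured point among the foreign-compound P450s shown.

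The P450s of foreign compounds, the enzymes of drug oxidation, gave 1 call among 8 members. CYP1A1, an AHR target that oxidises polycyclic aromatic compounds, had 32.5, 31.4 and 33.6 CPM in knockdown libraries, against 36.8, 38 and 40 CPM in control libraries. All knockdown values of CYP1A1 lay below all control values, in a change of small size: a log2 fold change of -0.23 and a limma adjusted p of 0.000478. The other 7 were not called. Of these, CYP3A5, which oxidises many drugs, measured 7.22 ± 0.209 CPM in knockdown and 6.89 ± 1.28 CPM in control (SD, n = 3 each). CYP3A7, the CYP3A form of fetal liver, had a log2 fold change of 0.18, and CYP2S1 one of -0.31 (limma adjusted p = 0.0885). The pseudogene CYP2D7 measured 1.1 CPM in knockdown and 0.99 CPM in control and was not called.

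Both P450 members of sterol and bile acid metabolism fell. CYP39A1, an oxysterol hydroxylase of bile acid synthesis, was the member with the largest fall, at 5.06, 4.23 and 5.56 CPM in knockdown libraries, against 12.5, 12.5 and 10.6 CPM in control libraries. The groups were far apart for CYP39A1, with a knockdown mean of 0.418 times the control mean. Its log2 fold change was -1.11 ± 0.1 (SE), with a limma adjusted p of 1.56e-11. CYP27A1, the mitochondrial sterol hydroxylase that starts the alternative route to bile acids, had 38.7, 40.2 and 39.7 CPM in knockdown libraries, against 55.3, 52.1 and 53.9 CPM in control libraries. Values within each group were close together for CYP27A1, and the log2 fold change was -0.43 with a limma adjusted p of 7.92e-10. CYP19A1, the aromatase that makes oestrogens from androgens, measured 5.44, 5.65 and 5.26 CPM in knockdown libraries, against 9.95, 11.8 and 8.79 CPM in control libraries. The control libraries of CYP19A1 varied more than the knockdown libraries, without overlap, and it fell by 0.78 on the log2 scale (limma adjusted p = 4.38e-08).

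Among the 5 P450s of fatty acids and eicosanoids, the 2 CYP4F members fell and the other 3 were not called. CYP4F3, which omega-hydroxylates leukotrienes and long-chain fatty acids, had 20.1, 17.1 and 18.4 CPM in knockdown libraries, against 36.2, 36.4 and 37.7 CPM in control libraries. CYP4F12, a related hydroxylase of arachidonic acid and some antihistamines, had 36.8, 29.7 and 37 CPM in knockdown libraries, against 55.9, 55.7 and 60.4 CPM in control libraries. For both genes every knockdown library was below every control library, and knockdown replicate 2 was the lowest. The log2 fold changes were -0.96 ± 0.062 for CYP4F3 and -0.72 ± 0.059 for CYP4F12 (SE), with limma adjusted p-values of 2e-15 and 9.37e-13. The 3 not called were CYP4V2, a fatty acid hydroxylase mutated in a crystalline retinal dystrophy, at -0.23, CYP2U1 at -0.09 and the arachidonic acid epoxygenase CYP2J2 at -0.01. CYP20A1, a P450 without a settled substrate, measured 28.8 CPM in knockdown and 28.3 CPM in control, and its 95% interval ran from a log2 fold change of -0.09 to 0.14.

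The 2 P450 members that rose both act on retinoids. Outside the rule for members, CYP51A1 and the prostacyclin synthase PTGIS, which is of P450 fold, were also called higher. Their log2 fold changes were 0.09 and 1.02. CYP26B1, which clears retinoic acid, had 118, 121 and 124 CPM in knockdown libraries, against 73.1, 65.4 and 68.7 CPM in control libraries. It was the P450 with the highest CPM among the members, and all knockdown libraries of CYP26B1 were well above all control libraries. The mean of CYP26B1 was 1.75 times the control, with a log2 fold change of 0.80 ± 0.04 (SE) and a limma adjusted p of 9.04e-19. CYP27C1, a retinol desaturase, measured 2.75, 2.95 and 3.17 CPM in knockdown libraries, against 1.7, 1.74 and 1.5 CPM in control libraries. CYP27C1 was a low gene without overlap between the groups, and it rose by a log2 fold change of 0.58 (limma adjusted p = 0.00037). The mean of CYP27C1 was 1.79 times the control, and log2 of CPM + 1 understates changes at so low a level. The 2 vitamin D hydroxylases in the same role group were not called, CYP2R1 at 7.73 CPM in knockdown and 7.16 CPM in control and CYP27B1 at 1.24 CPM in knockdown and 1.53 CPM in control.

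**Figure D2:**
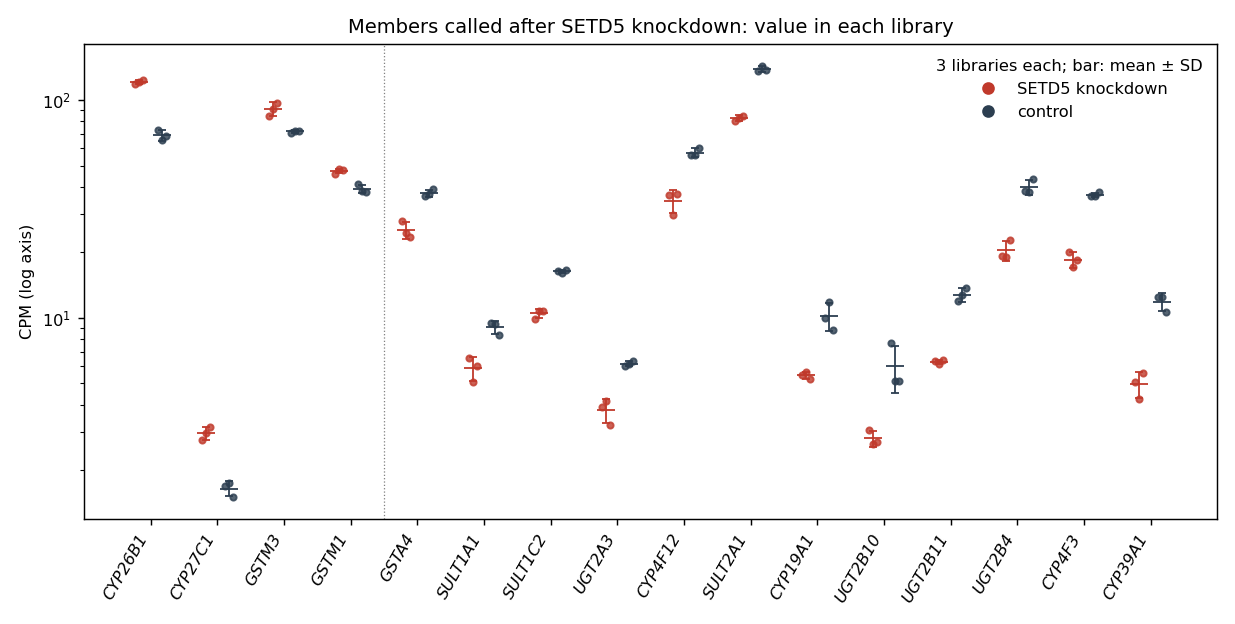
CPM in each library (y axis, log scale) for the 4 members called higher and the 12 called members with the lowest log2 fold change (x axis), with SETD5 knockdown in red and control in dark blue, points for libraries and bars for mean ± SD of 3 libraries. No member shown has overlapping groups, and CYP39A1 at the right end has knockdown values of 4.23 to 5.56 CPM below control values of 10.6 to 12.5 CPM.

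All 5 UGT2 members fell. They glucuronidate steroids, bile acids and drugs, and 4 of them belong to the UGT2B subfamily. UGT2B4, the member with the highest CPM of the UGT family and an enzyme of bile acids, had 19.2, 19.1 and 22.9 CPM in knockdown libraries, against 38.3, 37.9 and 43.6 CPM in control libraries. UGT2B11, a close relative with few assigned substrates, had 6.31, 6.14 and 6.4 CPM in knockdown libraries, against 11.9, 12.7 and 13.7 CPM in control libraries. The groups did not overlap in either. The knockdown mean was 0.511 times the control mean for UGT2B4 and 0.492 times for UGT2B11, with log2 fold changes of -0.94 ± 0.066 and -0.92 ± 0.091 (SE) and limma adjusted p-values of 1.81e-14 and 9.76e-11. UGT2B10, which glucuronidates nicotine and other tertiary amines, had 3.06, 2.64 and 2.69 CPM in knockdown libraries, against 7.67, 5.15 and 5.14 CPM in control libraries. Control replicate 1 stood above the other two UGT2B10 control libraries, all of which exceeded the knockdown libraries, and the log2 fold change was -0.86 (limma adjusted p = 4.83e-07). UGT2A3, another bile acid enzyme, had 3.88, 4.17 and 3.23 CPM in knockdown libraries, against 6.03, 6.13 and 6.36 CPM in control libraries. It fell by 0.60 on the log2 scale (limma adjusted p = 2.71e-05), without overlap. UGT2B7, the main enzyme of morphine glucuronidation, fell least, at 5.75 ± 0.119 CPM in knockdown and 7.81 ± 0.22 CPM in control (SD, n = 3 each). The summed level of the 5 UGT2 genes was 38.1, 37.9 and 41.1 CPM in knockdown libraries, against 71.7, 69.9 and 76.4 CPM in control libraries, a ratio of 0.537. UGT3A1, which uses another sugar donor, measured 3.75 CPM in knockdown and 3.81 CPM in control and was not called.

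The 5 UGT2 genes follow one another among the tested genes of chromosome 4, in the RefSeq order UGT2B10, UGT2A3, UGT2B7, UGT2B11 and UGT2B4. The next tested gene after UGT2B4 was SULT1E1, at a log2 fold change of 0.01. On the other side lay YTHDC1, a reader of methylated RNA, which rose by a log2 fold change of 0.20 (limma adjusted p = 1.97e-06). The coding sequences of the pair UGT2B10 and UGT2B11 are 95% identical, and 10.6% of the 50-base windows of the UGT2B10 transcript occur in that of UGT2B11, which leaves the assignment of reads within the pair uncertain. Of the same UGT2B10 windows, 5.84% occur in the UGT2B7 transcript, 0.85% in that of UGT2B4 and 0 in that of UGT2A3. The promoters of this pair are shown because the genes moved together and their start regions are alike over 90.1% of aligned bases. They are RefSeq sequences (GRCh38.p14), 5′ to 3′, from 250 bases before to 50 bases after the start, at chr4:68815744-68816043 on the plus strand and chr4:69214699-69214998 on the minus strand. Capitals mark TATAAA, and would also mark GTTAAT and GCGTG on either strand, neither of which occurs here.
UGT2B10: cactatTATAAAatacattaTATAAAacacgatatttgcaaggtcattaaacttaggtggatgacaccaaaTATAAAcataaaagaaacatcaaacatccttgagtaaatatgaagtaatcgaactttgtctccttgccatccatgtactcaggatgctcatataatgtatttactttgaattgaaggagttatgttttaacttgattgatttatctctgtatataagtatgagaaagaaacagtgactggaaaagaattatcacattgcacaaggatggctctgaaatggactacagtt
UGT2B11: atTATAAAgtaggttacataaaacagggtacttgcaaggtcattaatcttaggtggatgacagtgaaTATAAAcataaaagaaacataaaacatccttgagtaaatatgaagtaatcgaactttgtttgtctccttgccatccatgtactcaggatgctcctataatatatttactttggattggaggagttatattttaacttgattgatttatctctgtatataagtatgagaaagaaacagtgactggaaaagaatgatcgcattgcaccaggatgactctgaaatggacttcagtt
The TATAAA words begin 244, 230 and 179 bases before the start of UGT2B10 and 248 and 183 bases before that of UGT2B11.

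**Figure D3:**
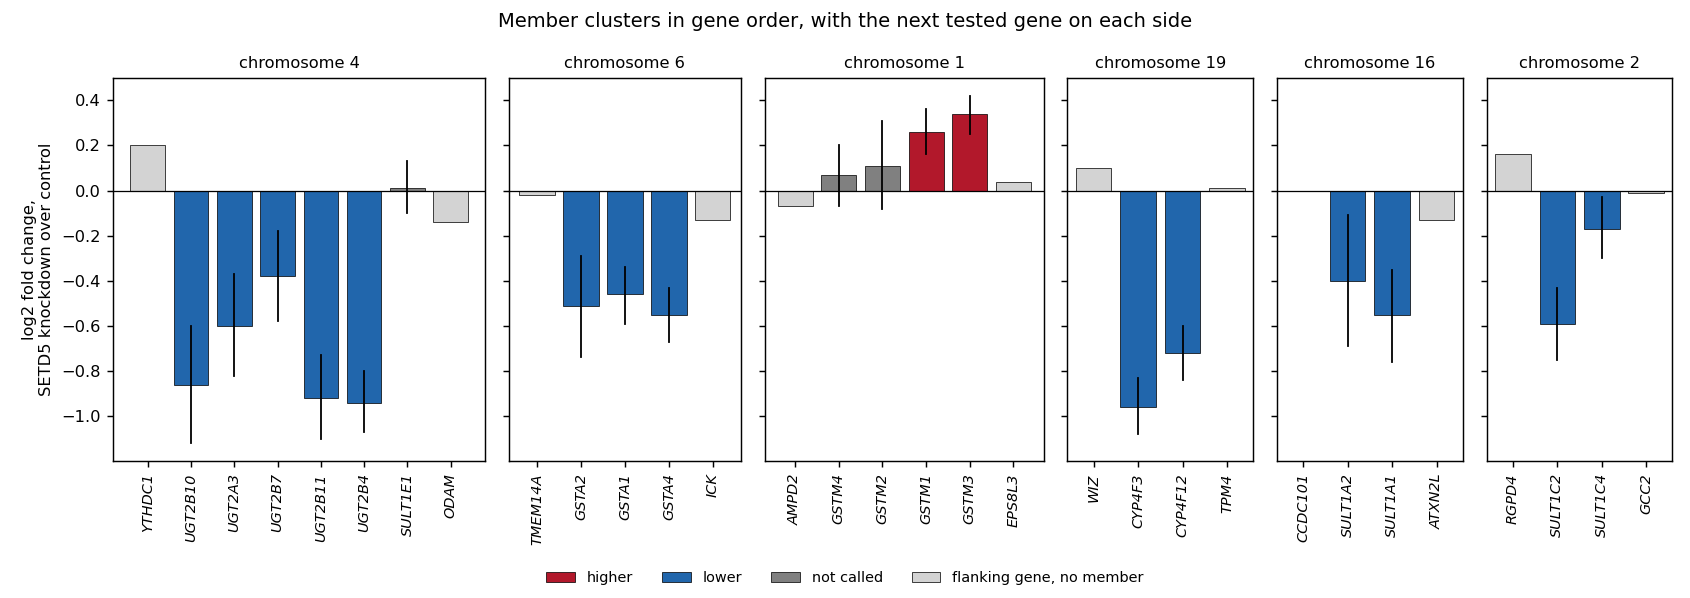
The log2 fold change of SETD5 knockdown over control (y axis) for clusters of members on 6 chromosomes (1 panel each, in RefSeq gene order), with 95% confidence intervals and the next tested gene on each side in light grey. On chromosome 4 the 5 UGT2 bars lie at -0.38 to -0.94 between YTHDC1 at 0.20 and SULT1E1 at 0.01, and the chromosome 1 panel has the 2 raised GST mu genes.

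Of the sulfotransferases, SULT2A1 had the largest fall and SULT1E1 was not called. SULT2A1, which sulfates dehydroepiandrosterone and bile acids, had 79.9, 82.6 and 84.9 CPM in knockdown libraries, against 136, 144 and 138 CPM in control libraries. Within each group the SULT2A1 values lay close together, with SDs of 2.52 CPM in knockdown and 4.32 CPM in control. The log2 fold change was -0.75 ± 0.036 (SE), with a limma adjusted p of 4.27e-19. SULT1E1, the oestrogen sulfotransferase, had 33.4, 34.1 and 33.6 CPM in knockdown libraries, against 35.9, 32.2 and 32.1 CPM in control libraries. The SULT1E1 knockdown values fell between the control values, and the 95% interval of the log2 fold change was -0.10 to 0.13.

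SULT1C2 had 9.88, 10.8 and 10.8 CPM in knockdown libraries, against 16.4, 16.1 and 16.6 CPM in control libraries. SULT1A1, the main phenol sulfotransferase of liver, had 6.56, 5.09 and 6.04 CPM in knockdown libraries, against 9.49, 9.4 and 8.36 CPM in control libraries. Both genes fell without overlap, by 0.59 and 0.55 on the log2 scale, with limma adjusted p-values of 6.23e-08 and 2.1e-05. The calls of their neighbours depended on single libraries. SULT1A2, 96.8% identical to SULT1A1 in coding sequence, measured 1.37 ± 0.266 CPM in knockdown and 2.11 ± 0.0978 CPM in control (SD, n = 3 each), with a limma adjusted p of 0.0179. Of the 50-base windows of the SULT1A1 transcript, 12.9% occur in that of SULT1A2, which leaves the assignment of reads within this pair uncertain. The SULT1A2 log2 fold change was -0.40, and it was -0.61 with a pseudocount of 0.1 and -0.63 by limma-voom. The limma adjusted p of SULT1A2 was 0.108 without knockdown replicate 3 and 0.0521 without control replicate 3. SULT1C4, which is abundant in fetal tissues, measured 19.8 ± 0.698 CPM in knockdown and 22.4 ± 1.55 CPM in control (SD, n = 3 each), with a limma adjusted p of 0.0363. The SULT1C4 call was lost on leaving out control replicate 2 or 3 or knockdown replicate 1 or 3, with limma adjusted p-values of 0.0601 to 0.19.

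The alpha-class GSTs, abundant in hepatocytes, all fell. GSTA4, which conjugates the reactive aldehydes of lipid peroxidation, had 27.9, 24.5 and 23.5 CPM in knockdown libraries, against 36.2, 37.1 and 38.9 CPM in control libraries. Its groups did not overlap, and the log2 fold change was -0.55 ± 0.06 (SE), with a limma adjusted p of 1.13e-09. GSTA1, which also binds bilirubin, measured 30.2 ± 3.85 CPM in knockdown and 41.8 ± 1.38 CPM in control (SD, n = 3 each), a log2 fold change of -0.46 (limma adjusted p = 8.62e-08). GSTA2 measured 4.07 ± 0.521 CPM in knockdown and 6.21 ± 0.261 CPM in control (SD, n = 3 each), a log2 fold change of -0.51 (limma adjusted p = 0.000196). Reads of this pair may be misassigned: coding identity was 96.7%, and 23.9% of the 50-base windows of the GSTA1 transcript occur in that of GSTA2. GSTA4 shares no such window with either. The summed alpha-class level was 66.7, 56 and 56 CPM in knockdown libraries, against 84.3, 83.4 and 88.5 CPM in control libraries, a sum that misassignment within the pair cannot change.

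The promoters of GSTA1 and GSTA2, 96% identical over aligned bases, are shown because the genes moved together and both hold TATAAA and ATTAAC. They are RefSeq sequences (GRCh38.p14), 5′ to 3′, over the same span, at chr6:52803767-52804066 and chr6:52763426-52763725, both on the minus strand. Capitals mark ATTAAC, the reverse complement of GTTAAT, a word found in binding sites of liver-enriched factors, and TATAAA.
GSTA1: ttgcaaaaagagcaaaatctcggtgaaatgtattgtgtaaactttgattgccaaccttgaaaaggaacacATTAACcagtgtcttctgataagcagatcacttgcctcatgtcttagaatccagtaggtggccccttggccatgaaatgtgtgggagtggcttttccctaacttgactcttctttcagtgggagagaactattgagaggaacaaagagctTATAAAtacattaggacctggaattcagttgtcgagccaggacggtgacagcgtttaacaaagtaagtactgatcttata
GSTA2: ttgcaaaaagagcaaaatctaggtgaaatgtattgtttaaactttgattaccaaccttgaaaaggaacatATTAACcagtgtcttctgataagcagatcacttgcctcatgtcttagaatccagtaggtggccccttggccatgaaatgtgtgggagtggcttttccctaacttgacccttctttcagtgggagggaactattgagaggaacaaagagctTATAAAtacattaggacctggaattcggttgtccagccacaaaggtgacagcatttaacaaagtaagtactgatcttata
In both, ATTAAC begins 180 bases and TATAAA 30 bases before the start.

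The mu class went the other way. GSTM3, the member of the class with the highest CPM, had 84.6, 91.3 and 97.4 CPM in knockdown libraries, against 70.7, 72.4 and 72.4 CPM in control libraries. GSTM1, a gene that many people lack by a common deletion, had 45.9, 48.2 and 47.5 CPM in knockdown libraries, against 41.2, 38.4 and 38 CPM in control libraries. Neither gene had overlapping groups, and the rises were small, with log2 fold changes of 0.34 ± 0.042 for GSTM3 and 0.26 ± 0.049 for GSTM1 (SE) and limma adjusted p-values of 2.46e-08 and 2.62e-05. GSTM2 at 0.11 and GSTM4 at 0.07 were not called. The transcript of GSTM1 shares 46% of its 50-base windows with GSTM2 and 20.8% with GSTM4, so values within this trio are uncertain, whereas GSTM3 shares none with them. The summed mu-class level was 160, 168 and 174 CPM in knockdown libraries, against 140, 139 and 138 CPM in control libraries, a ratio of 1.21.

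GSTP1, the pi-class enzyme that is scarce in normal hepatocytes and abundant in many tumours, was the highest member by far. It had 918, 917 and 915 CPM in knockdown libraries, against 904, 852 and 905 CPM in control libraries. All knockdown values of GSTP1 exceeded all control values, yet it was not called, with a log2 fold change of 0.05 (95% interval -0.01 to 0.10) and a limma adjusted p of 0.128. GSTO1, an omega-class thiol transferase, had 152, 167 and 163 CPM in knockdown libraries, against 180, 183 and 172 CPM in control libraries. It fell by a small amount without overlap, at a log2 fold change of -0.15 (limma adjusted p = 0.000436). GSTK1, the kappa-class enzyme of mitochondria and peroxisomes, measured 60.5 ± 0.657 CPM in knockdown and 73.4 ± 1.87 CPM in control (SD, n = 3 each), a log2 fold change of -0.27 (limma adjusted p = 5.48e-07). GSTO2, the tyrosine catabolism enzyme GSTZ1 and GSTCD, a protein with a GST-like domain, were not called, at log2 fold changes of -0.06, -0.03 and 0.04. GSTP1 made up most of the summed GST level, which was 1416 ± 6.16 CPM in knockdown and 1414 ± 28.7 CPM in control (SD, n = 3 each). The summed SULT level was 0.69 times and the summed UGT level 0.559 times the control.

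Levels between genes were compared per length, as CPM per kb of 1 GENCODE 29 transcript. GSTP1 led in both groups, at 954 CPM per kb in knockdown and 923 CPM per kb in control, followed by GSTO1 at 165 CPM per kb in knockdown and 183 CPM per kb in control. In control libraries GSTK1 and SULT2A1 came next at 70.3 CPM per kb each and did not differ beyond their spread, with ranges of 68.2 to 71.4 and 68.5 to 72.7 CPM per kb. In knockdown libraries GSTK1 stood at 57.9 and SULT2A1 at 41.5 CPM per kb, and SULT2A1, with values of 40.2 to 42.7, overlapped GSTM1, with values of 39.5 to 41.5 CPM per kb. CYP26B1 ranked 7 of the 47 members in knockdown libraries and 13 in control libraries. It was the highest P450 member per length in knockdown libraries, at 25.5 CPM per kb, against 14.6 CPM per kb in control libraries. There CYP4F12 at 28.1 and CYP27A1 at 23.5 CPM per kb stood above CYP26B1. CYP4F12 measured 16.9 and CYP27A1 17.3 CPM per kb in knockdown libraries. UGT2B4, the highest UGT per length, ranked 17 in knockdown libraries and 10 in control libraries.

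**Figure D4:**
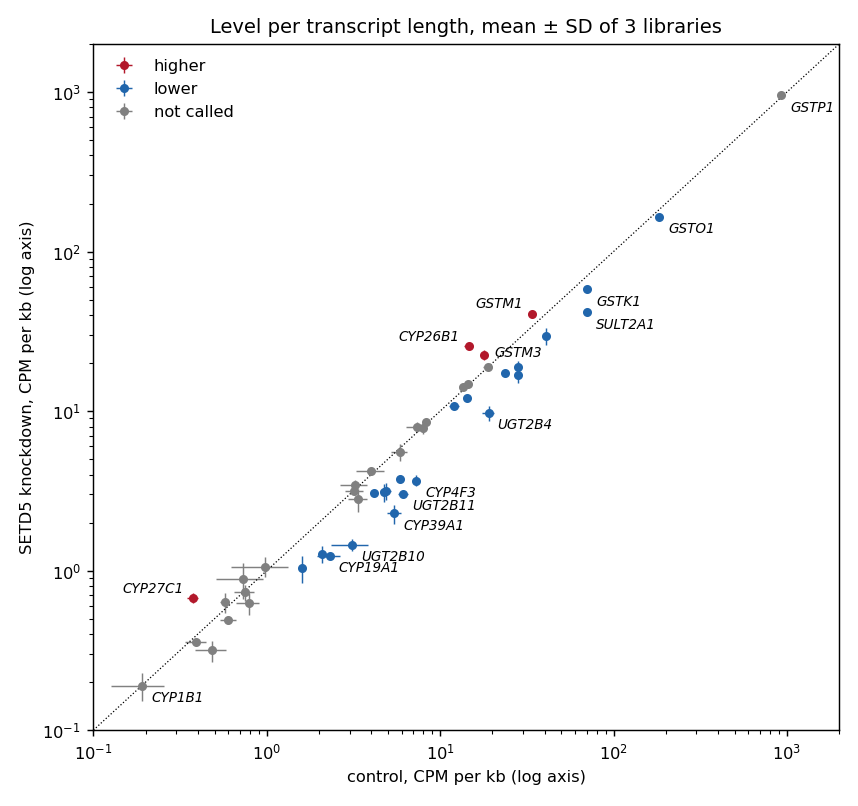
Mean level of members per kb of transcript, SETD5 knockdown (y axis) against control (x axis), in CPM per kb on log axes, with bars for the SD of 3 libraries and a dotted line of equal levels. CYP26B1 lies above the line at 25.5 CPM per kb in knockdown and 14.6 CPM per kb in control, and GSTP1 lies at the top on the line.

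The 10 matching symbols below 1 CPM were looked at without the filter. UGT1A1, the bilirubin glucuronosyltransferase, had 0.125, 0.245 and 0.419 CPM in knockdown libraries, against 0.937, 0.627 and 0.643 CPM in control libraries. UGT2B28, a further UGT2 gene, had 0.188, 0.0614 and 0.12 CPM in knockdown libraries, against 0.586, 0.696 and 0.429 CPM in control libraries. Both rested on a few reads per library and were lower when every gene of the table was tested, with limma adjusted p-values of 0.0129 and 0.00951. The other 8, CYP2E1, CYP2B6, CYP11A1, CYP24A1, CYP4F2, SULT1B1, UGT8 and the readthrough symbol CYP3A7-CYP3A51P, were not called. Over all 57 matching symbols 23 were then lower and 4 higher, against 3481 lower and 3373 higher among all 14200 genes. The members CYP2S1, CYP1B1 and CYP2D7 had a mean under 1 CPM in 1 of the groups only, and none of these 3 was called.

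Sequence features were described for the 38 members with a RefSeq promoter. The median GC content of the 300-base window was 53% for the 17 lower members, 56.7% for the 4 higher members and 65.3% for the 17 not called, and 65.3% over the 10233 tested genes with a promoter. The median number of CG dinucleotides was 4 for lower members, 15.5 for higher members, 24 for those not called and 26 over tested genes. TATAAA, searched on both strands, occurred in 11 of 38 member promoters (28.9%), against 5.65% of promoters of tested genes and 12% of all 27305 promoters. Of these 11, 7 belonged to lower members, 1 to the higher member CYP26B1 and 3 to members not called, and 4 of the 11 were in the printed pairs UGT2B10 and UGT2B11 and GSTA1 and GSTA2, whose promoters are alike within each pair. GTTAAT occurred in 6 member promoters (15.8%), against 3.8% of promoters of tested genes, of which GSTA1 and GSTA2 were lower and UGT3A1, SULT1E1, CYP3A5 and CYP3A7 were not called. GCGTG, the core of the AHR response element, occurred in 9 member promoters (23.7%), against 50.9% of promoters of tested genes, the CYP1A1 promoter among them. The antioxidant response core TGACNNNGC, on either strand, was in 21.1% of member promoters and 15.2% of those of tested genes, and CCAAT in 36.8% of member promoters and 37% of those of tested genes. A word in a promoter is a description and not a binding site.

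GCACCT, a 6-base word that an earlier scan of 3′ UTRs against the fold changes of these libraries had picked out, was located in the members. It occurred in the 3′ UTR of 11 of 47 members (23.4%) and of 3306 of 11541 tested genes with a 3′ UTR (28.6%). Of the 11 members 4 were lower, 3 higher and 4 not called, and of the 36 members without the word 17 were lower and 1 was higher. Over all tested genes, 34.5% were lower and 24.7% higher with the word, and 24.2% lower and 27.9% higher without it. The tested genes with the word had a median log2 fold change of -0.04, and those without it 0.01. The word was picked from these same fold changes, so neither the split of all tested genes nor that of the members is separate evidence about it. The 17 lower members without the word included UGT2B4, SULT2A1 and CYP4F3. Genes with the word have longer 3′ UTRs, with a median of 1451 bases in members with it and 419 bases in members without it. Over all tested genes the medians were 2463 bases with the word and 780 bases without it. Sites of 6 called members are shown to let the flanks be compared, as windows of 30 bases of the GENCODE 29 transcript, 5′ to 3′ in the sense direction, with the word in capitals. The first 3 genes fell and the last 3 rose.
CYP39A1: ccccacctggcaGCACCTagacctgagctc
CYP19A1: tattcctaagcaGCACCTttcactgttcat
GSTA2: caatgtaaaaatGCACCTctgacattttca
GSTM1: ctctgcatcccaGCACCTgcctcctcgttc
CYP27C1: gggctgggggtaGCACCTgtgcccgctgct
CYP26B1: tcgctgctgtgaGCACCTcagtggctccct
GSTM2 and GSTM4, which were not called, have the same window as GSTM1.

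Genes that serve these enzymes were read out by lists of their roles. Of 109 listed genes 97 were tested, and 22 were higher, 47 lower and 28 not called, so that 71.1% were called, against 52.1% of all tested genes. Of the listed genes tested, 48.5% were lower and 22.7% higher, against 26.5% and 25.7% of all tested genes. The median log2 fold change of the listed genes was -0.09. Of the 12 electron donors of P450s and their relatives 7 were lower and 0 were higher. CYB5A, the cytochrome b5 of the endoplasmic reticulum, fell by 0.59 on the log2 scale, at 43.8 CPM in knockdown and 66.6 CPM in control, followed by the b5 reductases CYB5R3 at -0.36 and CYB5R2 at -0.30. The CYB5R2 call was lost without knockdown replicate 1 (limma adjusted p = 0.0515). PGRMC1, a heme-binding partner of P450s, was not called, at 108 CPM in knockdown and 114 CPM in control.

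Cofactor supply did not move in 1 direction. For comparison, 26.5% of all tested genes were lower and 25.7% higher. Of 5 genes for UDP-glucuronic acid 1 was higher and 2 were lower. UGDH, which makes UDP-glucuronic acid, rose to 255 CPM in knockdown, against 203 CPM in control, while the transporter SLC35D1 at -0.25 and the UDP-glucose enzyme UGP2 at -0.16 fell. GUSB, which was listed with them but cleaves glucuronides, was not called. Of 9 genes listed for sulfate donor supply 6 were lower and 1 was higher, counting the steroid sulfatase STS, which removes sulfate. The sulfate transporter SLC26A1 fell to 43.2 CPM in knockdown, against 79.9 CPM in control, and PAPSS2, a PAPS synthase, fell by 0.36 and the steroid sulfatase STS by 0.29 on the log2 scale. The PAPS transporter SLC35B2 was not called. Of 13 glutathione genes 5 were higher and 6 were lower. CHAC1, which degrades glutathione, rose to 17.9 CPM in knockdown, against 8.79 CPM in control, while the glutaredoxin GLRX fell by 0.84 and the glutamyl transferase GGT1 by 0.63 on the log2 scale. GCLC, the catalytic subunit of the first step of glutathione synthesis, measured 57.3 CPM in knockdown and 57.6 CPM in control. The 3 tested membrane-bound glutathione transferases all fell, MGST2 by 0.48, MGST1 by 0.29 and MGST3 by 0.18 on the log2 scale.

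Among 22 tested other enzymes of drug and lipid conversion, 10 were lower and 4 higher. These shares were 45.5% and 18.2%, against 26.5% and 25.7% of all tested genes. The histamine methyltransferase HNMT fell to 72.1 CPM in knockdown, against 152 CPM in control, a log2 fold change of -1.07 (limma adjusted p = 4.96e-24). PTGIS, prostacyclin synthase, which is itself of P450 fold, rose to 5.28 CPM in knockdown, against 2.11 CPM in control, and GLYATL1, a relative of glycine acyltransferases, fell to 1.14 CPM in knockdown, against 3.14 CPM in control. The carboxylesterase CES2 was not called. Of 33 tested transcription factors and cofactors of these genes 13 were lower (39.4%) and 11 higher (33.3%). The glucocorticoid receptor NR3C1 fell to 31.1 CPM in knockdown, against 49 CPM in control. NR1I2, the xenobiotic receptor PXR, fell to 7.39 CPM in knockdown, against 10.2 CPM in control. HNF4A, a central factor of hepatocyte genes, was not called, at 348 ± 3.65 CPM in knockdown and 350 ± 14 CPM in control (SD, n = 3 each).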

How the data were processed

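Libraries were prepared from poly(A) RNA with a stranded kit, per the labels' protocols. The submitters' processing notes name STAR 2.5.1, R 3.3.0 and the builds hg19 and mm10, without a role for each. The sources used here name no counter, scaling or gene filter. The authors deposited log2 values. When these are taken back to CPM by subtracting 1 from the power of 2, 100% of values are whole multiples of the value of 1 read (tolerance 0.01), so the deposited log2 values are log2(CPM + 1) of whole reads. Precision from depth covers counting error only. Antisense reads may be counted with a gene if strand was ignored.

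Genes averaging 1 CPM or more were tested with limma 3.58.1 in R 4.3.3 (two-sided, lmFit and eBayes with trend, group as the only term), with Benjamini-Hochberg adjustment over all 12865 tested genes and a threshold of 0.05. Fold changes refer to log2(CPM + 1) and therefore understate changes at low levels. Libraries of a group differed by a chi-square of 1.26 to 2.15 per gene, where sampling alone gives a value near 1, and were kept as the 3 replicates that the labels name. This does not show that they came from separate cultures. The fit was tested on simulated data, with the same small added spread between libraries for every gene. That test does not cover noisier genes or libraries that are not separate cultures. Library values were given for the 12 lowest and up to 12 highest called members and the 2 members with the highest CPM in each family. Among supporting genes, up to 3 called per list and the highest not called were named. Some genes and a sequence that these rules take are not reported here, and counts include those genes. The members and lists were chosen with earlier results of these data known, and the promoter words, 3′ UTR word, neighbours and per-length levels after values were seen. Transcripts were from GENCODE 29, 1 per gene, and promoters and gene order from RefSeq. Alternatives covered the pseudocount, the filter, the scaling, the trend, limma-voom, TREAT, the replicate block and each library left out.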

Additional observations from a re-analysis of the deposited data

How the results depend on the processing

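None of the 25 called members changed sign under the 15 alternatives. Of these, 15 kept the call under all those in which they were tested (a minimum of 5 CPM left 18 lower and 3 higher), and 23 under all but TREAT, which tests against a change of 1.2-fold. Under TREAT 1 member was higher and 14 were lower, all tested genes gave 640 higher and 826 lower, and the supporting genes 7 higher and 13 lower. SULT1A2 and SULT1C4 lost the call elsewhere, SULT1C4 also under median centring (adjusted p = 0.0502), quantile normalization (0.0515), no trend (0.0539) and limma-voom (0.0514). GSTP1 was called higher under quantile normalization (adjusted p = 0.00193) and limma-voom (0.0493), and CYP27B1 (0.048) and CYP2S1 (0.0336) were called lower with no trend. CYP2S1 was also called without control replicate 2 (0.0437) and CYP4V2 without SETD5 knockdown replicate 3 (0.0215). Leaving out 1 library gave 19 to 21 members lower and 4 higher.

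Of the members not called, 7 changed sign in at least 1 alternative without being called there. Their log2 fold changes over the fits that leave out 1 library were -0.089 to 0.058 for CYP2J2, -0.139 to 0.026 for GSTO2, -0.078 to 0.022 for GSTZ1, -0.083 to 0.138 for CYP1B1, -0.014 to 0.066 for SULT1E1, -0.083 to 0.067 for UGT3A1 and -0.005 to 0.201 for CYP3A5. Among named supporting genes that were not called, the ranges were -0.086 to 0.010 for GUSB, -0.022 to 0.013 for GCLC, -0.095 to 0.037 for CES2 and -0.040 to 0.018 for HNF4A. Median centring gave 0.003 for GCLC and 0.001 for HNF4A, and quantile normalization gave 0.006 for GCLC, 0.015 for HNF4A and -0.006 for CYP1B1.

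Deviations of same-numbered libraries correlated at -0.011, 0.054 and 0.042, and those of differently numbered libraries at -0.060 to 0.021. Values this small cannot settle whether the numbers pair the samples. The fit with the replicate block called 21 members lower and 4 higher. It called 3499 of all tested genes lower and 3399 higher, against 3403 and 3303 without the block. Depth limits the members under 2 CPM, whose SE was 0.14 to 0.16, and a missing call at this depth is not evidence of equal levels. The causes of these changes were not tested.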
